A study of Caenorhabditis elegans with 46 samples.

Results

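Small RNA libraries of Caenorhabditis elegans L1 larvae were used to ask how the loss of henn-1, the worm's own small RNA methyltransferase, changed which microRNA arms withstood periodate in animals that also carried a plant methyltransferase, Ath-HEN1, under a driver labelled ASE. An arm is one of the 2 strands that a microRNA hairpin yields, named 5p or 3p. The quantity described for each arm is the oxidation effect, the log2 ratio of oxidised over untreated counts, in lines without henn-1 minus the same effect in lines with henn-1. The members were all 473 worm arms of the deposited tables in the 8 ASE libraries, out of 46 libraries in the series. 395 arms passed a filter on low counts, with a minimum count of 10, and held 99.9996% of the ASE counts. The other 78 arms were not tested, and 53 of them had at least 1 count in an ASE library.

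The 4 libraries without henn-1 came from the transgenic lines MLC749 and MLC750, which carried ASE:Ath-HEN1 and a null allele written henn-1(0). The 4 libraries with henn-1 came from the lines MLC702 and MLC703, which carried ASE:Ath-HEN1 in an otherwise wild type background. Each line gave 1 oxidised and 1 untreated library of total RNA from whole larvae, so each genotype and treatment had n = 2 lines. All 8 libraries therefore carried the plant enzyme. The sources used here do not name the promoter behind the label ASE, and a line stands for 1 transgene. In whole larvae, fewer cells of a type and less RNA per cell cannot be told apart. The library numbers of the genotypes lie apart (42747 to 42750 for henn-1(0), 40634 to 40637 with henn-1), and the sources used here do not say what the numbers mark, so whatever they mark and the genotype cannot be told apart either. henn-1 itself is a protein-coding gene and was not measured in these libraries.

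An unmethylated 3′ end is destroyed as a ligation substrate by periodate, so that the RNA drops out of the library, whereas a methyl group there protects it. The plant enzyme HEN1 methylates microRNAs, which animals normally leave bare, so a tissue-specific HEN1 marks the microRNAs of the cells that express it. HENN-1 is the worm relative of HEN1: it methylates 21U RNAs, the worm's piRNAs, which are bound by the Argonaute PRG-1, and a class of 26G RNAs bound by ERGO-1. Small RNAs that HENN-1 protects are thus kept in every oxidised library of a worm that has henn-1, whatever the driver. ASE is a pair of taste neurons, and lsy-6 is the microRNA that sets the fate of its left member.

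The oxidised ASE libraries held 1011043 and 1055616 counts in henn-1(0) lines and 632514 and 1267212 counts in lines with henn-1. The untreated ones held 13254452 and 14186154 counts in henn-1(0) lines and 43302426 and 39573519 counts with henn-1, and 3 counts were worth 2.37 to 4.74 CPM (counts scaled to a library total of 1000000 worm-arm counts) in an oxidised library. Replicate lines correlated at 0.984 (henn-1(0)) and 0.987 (henn-1 present) after oxidation and at 0.990 and 0.995 before it, over the log2(CPM + 1) of the 189 tested arms with at least 10 CPM before oxidation. lsy-6-3p, the arm that marks the left ASE neuron, rose on oxidation in both genotypes. It had 2581 and 3376 CPM in oxidised against 83.0 and 73.7 CPM in untreated henn-1(0) libraries, and 1055 and 846 CPM in oxidised against 107 and 93.3 CPM in untreated libraries with henn-1.

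After oxidation, a group of arms led by miR-62-3p had a far smaller share of the counts in henn-1(0) lines than in lines with henn-1, and arms of many abundant microRNAs had a larger one. 56 of 395 arms (14.2%) were lower in henn-1(0) and 62 (15.7%) were higher, where an arm counts as called only if edgeR's adjusted p was below 0.05 in the same direction with 3 scalings of library size (TMM, RLE and total counts). The median difference was −5.96 for the lower arms and 1.41 for the higher ones, each relative to the median of all arms tested. For all 118 called arms the log2 ratios of the 2 henn-1(0) lines lay on one side of the 2 lines with henn-1. Among all arms tested, 48.4% were separated upwards in this way and 30.1% downwards.

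The makeup of the libraries shows both groups on the scale of shares. Both were picked from these same counts, so the direction in which each separates was fixed by that choice. The shares of a library also add up to a whole, so a larger share of some arms leaves less for the others. The 56 lower arms held 3.64% and 3.21% of the counts in oxidised henn-1(0) libraries (MLC749 and MLC750), against 56.4% and 56.9% in oxidised libraries with henn-1 (MLC702 and MLC703). Before oxidation the same arms held 3.49% and 3.22% in henn-1(0) and 3.54% and 4.14% with henn-1. The 4 untreated libraries and the oxidised henn-1(0) pair thus lay together, and the oxidised pair with henn-1 stood far above them. The 62 higher arms mirrored this, with 56.7% and 54.0% in oxidised henn-1(0) libraries and 13.6% and 11.4% in oxidised libraries with henn-1. In untreated libraries they held 49.5% and 48.8% in henn-1(0) and 50.9% and 47.6% with henn-1.

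**Figure D1:**
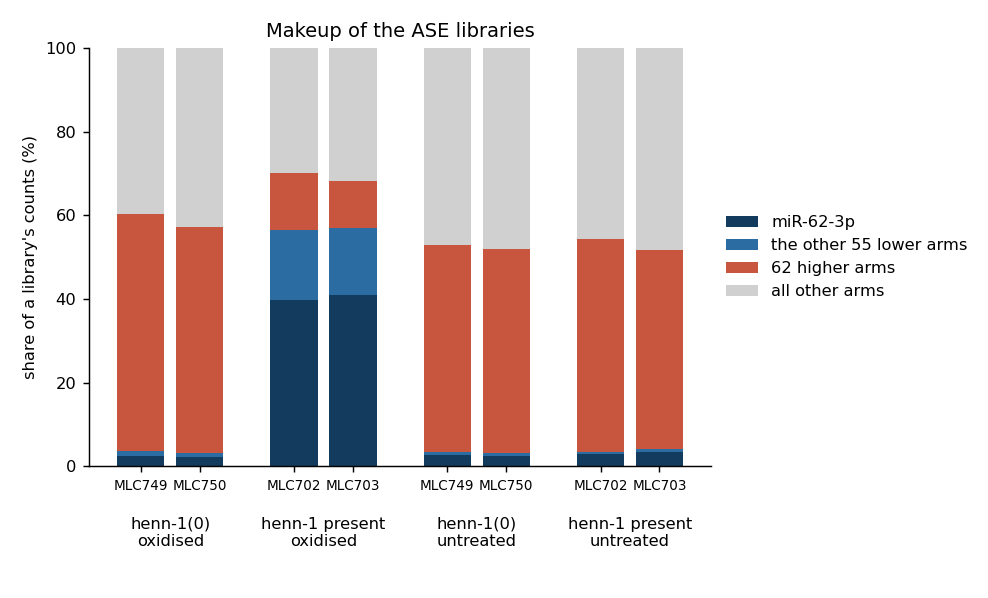
Share of each ASE library's counts (y axis, percent) taken by miR-62-3p, by the other 55 lower arms, by the 62 higher arms and by all other arms, 1 bar per library, for the 4 combinations of genotype and treatment. The lower arms fill 56.4% and 56.9% of the oxidised libraries with henn-1 and at most 4.14% of any other ASE library. Lower and higher arms were picked from these same counts.

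The number of arms called higher depended on the scaling of library size. TMM factors gave 173 arms higher (43.8%) and 56 lower, with a median of 2.05 over all arms on the log2 scale, RLE factors 62 and 88 with a median of 0.19, and total counts 108 and 72 with a median of 0.88. Calls in the higher direction made up 75.5% of all calls with TMM, 41.3% with RLE and 60.0% with total counts. The 3 scalings moved 250 arms up or down together, those with more than 3 counts in each oxidised pair. Over these the difference from the median arm varied by a median of 0.05 and by at most 0.19 between scalings. Arms below that count need not follow. miR-247-3p, with no count in 1 oxidised pair, was at 8.78 with TMM, 9.11 with RLE and 9.33 with total counts. Differences in oxidation effect below are therefore log2 values relative to the median arm, unless given otherwise. The standard error (SE) is that of the TMM fit (n = 2 lines per genotype and treatment). Each adjusted p is the largest of the 3 scalings from edgeR. It tests the value before the median arm is taken off, against 0, so it is no test of the printed relative value.

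miR-62-3p held most of the share of the lower arms. miR-62 lies in an intron of ugt-50, a UDP-glycosyltransferase gene, on its strand (X:12692608-12692665, plus strand, WBcel235), and belongs to the mirtrons, hairpins cut out by splicing. Its 3p arm held 2.61% and 2.19% of the oxidised counts in henn-1(0) lines against 39.8% and 41.1% in lines with henn-1. It held 2.83% and 2.56% of the untreated counts in henn-1(0) and 2.95% and 3.45% with henn-1. The oxidised share was thus close to the untreated one in henn-1(0) lines and far above it in lines with henn-1, with a difference of −4.64 ± 0.50 (SE, adjusted p = 3.55e-05). The opposite arm, miR-62-5p, had 87.0 and 158 CPM in oxidised henn-1(0) libraries and 109 and 85.2 CPM in oxidised libraries with henn-1, groups that overlap, and a difference of −0.23 ± 0.67 (adjusted p = 0.959). Without the oxidised MLC749 library that value was 0.31.

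The steepest differences belonged to arms that were scarce before oxidation. miR-8198-3p (IV:16214390-16214461, minus strand, between genes) had 3.96 and 4.74 CPM in oxidised henn-1(0) libraries against 2259 and 2034 CPM in oxidised libraries with henn-1. Untreated libraries held 8.75 and 9.02 CPM in henn-1(0) and 5.40 and 4.6 CPM with henn-1. The groups were more than 1000 CPM apart after oxidation and a few CPM apart before it, and the difference was −10.59 ± 0.78 (adjusted p = 7.68e-11). Its other arm, miR-8198-5p, followed it, with 11.9 and 32.2 CPM in oxidised henn-1(0) libraries, 1496 and 1337 CPM in oxidised libraries with henn-1 and a difference of −9.25 ± 0.83 (adjusted p = 5.56e-09).

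miR-798-3p (IV:14277312-14277387, minus strand, opposite ilcr-1) had 15.8 and 11.4 CPM in oxidised henn-1(0) libraries and 5171 and 4335 CPM in oxidised libraries with henn-1. In untreated libraries it had 19.0 and 28.5 CPM in henn-1(0) and 16.8 and 13.5 CPM with henn-1. Here too the oxidised groups lay far apart and the untreated ones close together, with a difference of −9.91 ± 0.75 (adjusted p = 1.03e-10). miR-78-3p (IV:15165647-15165742, plus strand, between genes) was at 11.9 and 4.74 CPM in oxidised henn-1(0) libraries against 10145 and 4030 CPM with henn-1, and at 17.1 and 10.4 CPM in henn-1(0) against 27.6 and 16.3 CPM with henn-1 in untreated ones. Its difference was −9.77 ± 1.03 (adjusted p = 1.82e-07). The annotation places piRNA genes on the same strand over 4 of the tested arms. These are miR-78-3p and both arms of miR-8198 among the lower arms and miR-790-5p among the higher ones.

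miR-789 has 2 copies on chromosome IV whose 3p arms share reads. miR-789-1-3p (IV:16740693-16740789, minus strand, in an exon of Y51H4A.24) had 338 and 367 CPM in oxidised henn-1(0) libraries against 18989 and 15505 CPM with henn-1, and 116 and 88.8 CPM in henn-1(0) against 57.0 and 53.5 CPM with henn-1 in untreated libraries. The oxidised groups differ by far more than the lines within them, and the difference was −7.30 ± 0.49 (adjusted p = 7.68e-11). The second copy, miR-789-2-3p, had nearly the same levels, and reads of the 2 copies cannot be told apart. miR-8198, miR-798, miR-78 and both copies of miR-789 form a list of hairpins picked from earlier results of these libraries, which is no independent evidence of its direction: 7 of its 8 tested arms were lower, where 14.2% of all arms were, with a median of −8.28.

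Both arms of miR-238 were lower. miR-238-5p (hairpin III:8867328-8867425, minus strand, between genes), from a hairpin known for effects on adult lifespan, had 198 and 459 CPM in oxidised henn-1(0) libraries against 21726 and 32415 CPM with henn-1. In untreated libraries it had 213 and 359 CPM in henn-1(0) and 108 and 105 CPM with henn-1. The order of the genotypes was thus opposite before and after oxidation, and the difference was −8.71 ± 0.70 (adjusted p = 1.11e-09). The abundant arm miR-238-3p moved less, with 6150 and 4513 CPM in oxidised henn-1(0) libraries, 28981 and 28882 CPM with henn-1 and a difference of −3.25 ± 0.45 (adjusted p = 0.0218), the smallest of the 56.

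4 lower arms had no count in either oxidised henn-1(0) library. miR-5547-5p had 44.3 and 38.7 CPM in oxidised libraries with henn-1, and its ratio of oxidised over untreated was at least 35.5-fold lower in henn-1(0), taking 3 counts over the 2 libraries in place of 0. The bounds were at least 6.52-fold for miR-2207-5p, at least 5.41-fold for miR-8208-3p and at least 4.52-fold for miR-1832b-5p, whose oxidised libraries with henn-1 held 3.95 to 13.4 CPM. These 3 arms stood near the depth limit, and their calls were lost without 1 untreated henn-1(0) library (MLC750 for miR-2207-5p and miR-8208-3p, MLC749 for miR-1832b-5p). miR-240-5p, from a hairpin whose partner miR-786 acts in the intestine, had 1 count in the oxidised henn-1(0) pair and 317 counts in the oxidised pair with henn-1. On the CPM scale of the pooled pairs it was 345 times as high with henn-1 (95% counting interval 61.4 to 13664).

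**Figure D2:**
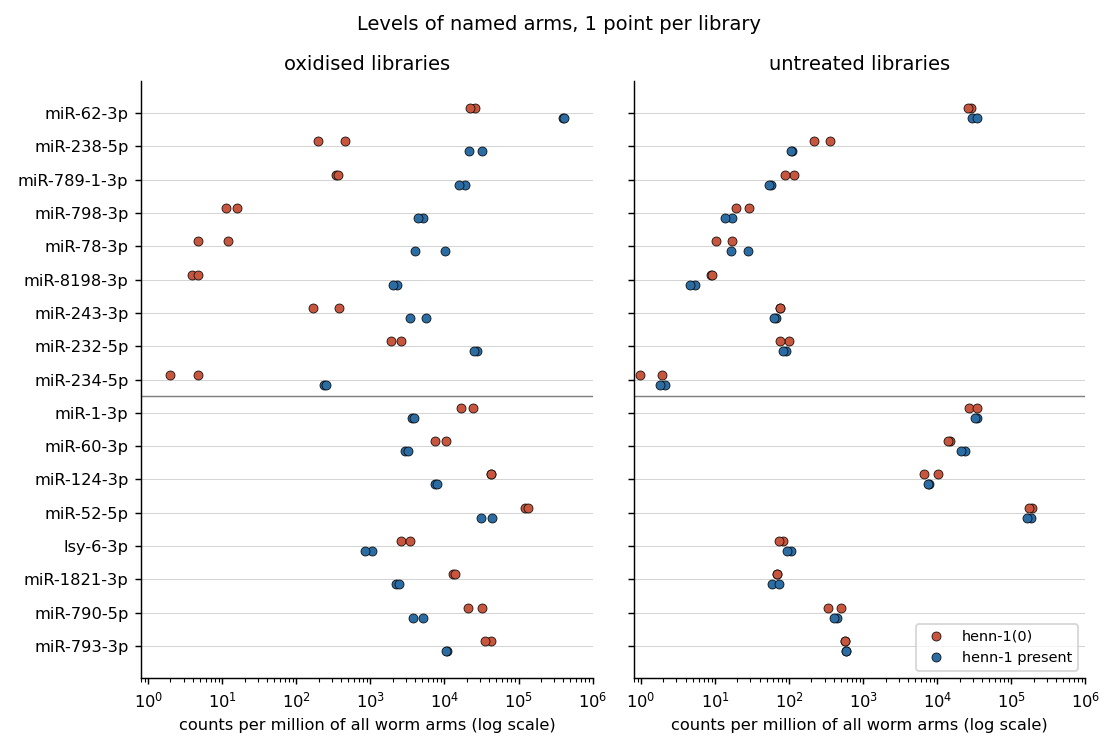
CPM (x axis, log scale) of 17 named arms in the oxidised (left) and untreated (right) ASE libraries, 1 point per library, with henn-1(0) above lines with henn-1 in each row. Above the grey line the lower arms lie far apart between genotypes after oxidation (miR-8198-3p at 3.96 and 4.74 CPM in henn-1(0) against 2259 and 2034 CPM with henn-1), and below it tissue and ASE microRNAs are higher in oxidised henn-1(0) libraries.

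Most lower arms rose on oxidation in lines with henn-1 and passed no test in henn-1(0) lines. The 56 were picked for a lower oxidation effect in henn-1(0) than with henn-1, so this order was fixed by the choice. In lines with henn-1, 51 of the 56 rose on oxidation in all 3 scalings. In henn-1(0) lines 10 still rose, among them the 3p arms of both copies of miR-789 and of miR-8186. Another 1 fell (miR-5546-3p, named after its values were seen) and 45 passed neither way. Of all 395 arms, 69 (17.5%) rose and 33 (8.35%) fell on oxidation in henn-1(0), and 93 (23.5%) rose and 88 (22.3%) fell with henn-1. miR-232-5p was the most abundant of the 10 that still rose, with 1884 and 2579 CPM in oxidised against 99.0 and 75 CPM in untreated henn-1(0) libraries. With henn-1 it reached 27465 and 25089 CPM after oxidation against 91.2 and 82.5 CPM before. Oxidised libraries of both genotypes lay above all untreated ones, and those with henn-1 lay highest, with a difference of −4.38 ± 0.63 (adjusted p = 0.00175).

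miR-239a-3p and miR-243-3p had the same order of libraries. miR-232, miR-239a and the hairpins miR-242 and miR-43 below were named after their values were seen. miR-239a-3p had 553 and 814 CPM in oxidised henn-1(0) libraries and 6835 and 8697 CPM in oxidised libraries with henn-1, and 110 and 164 CPM in untreated henn-1(0) libraries and 92.6 and 59.8 CPM in untreated ones with henn-1 (difference −5.23 ± 0.65, adjusted p = 7.40e-05). miR-243-3p, known for loading onto the Argonaute RDE-1 in place of the usual microRNA Argonautes, had 170 and 380 CPM in oxidised henn-1(0) libraries against 5694 and 3410 CPM with henn-1, and 74.5 and 74.5 CPM in henn-1(0) against 66.5 and 62.9 CPM with henn-1 in untreated libraries. Its difference was −5.06 ± 0.51 (adjusted p = 5.39e-06). In all 3 arms the oxidised henn-1(0) libraries lay between the untreated libraries and the oxidised ones with henn-1.

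Wild type larvae of the strain N2, which have henn-1 and no plant enzyme, were oxidised in 2 libraries with 2 untreated ones beside them. None of them is in the ASE contrast. They do enter the same model, with its low-count filter, its TMM and RLE factors and its shared estimate of spread. In wild type 82 arms (20.8% of 395) rose on oxidation in all 3 scalings and 83 (21.0%) fell, while with TMM alone 193 (48.9%) fell. 53 of the 82 arms kept in wild type were lower in ASE henn-1(0) and none was higher, where 14.2% of all arms were lower and 15.7% higher. These 53 made up 64.6% of the arms kept in wild type and 94.6% of the lower arms. Among the 83 arms lost in wild type, 45 (54.2%) were higher in ASE henn-1(0) and none was lower, and they made up 72.6% of the higher arms. Of the 230 arms in neither class 17 were higher and 3 lower. Median differences were −5.44 for the arms kept in wild type, 1.19 for those lost and 0.03 for those in neither class.

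miR-62-3p shows the likeness of wild type and ASE lines with henn-1 in 1 arm. It took 24.4% and 36.1% of the oxidised wild type counts and 1.95% and 2.14% of the untreated ones. Oxidised ASE lines with henn-1, at 39.8% and 41.1%, lay above the wild type pair, and oxidised henn-1(0) lines, at 2.61% and 2.19%, lay close to untreated wild type. Across the 317 arms with no group at 0, the ASE difference and the wild type oxidation effect had a Pearson correlation of −0.83, which is a description across arms of shared libraries and not a test.

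**Figure D3:**
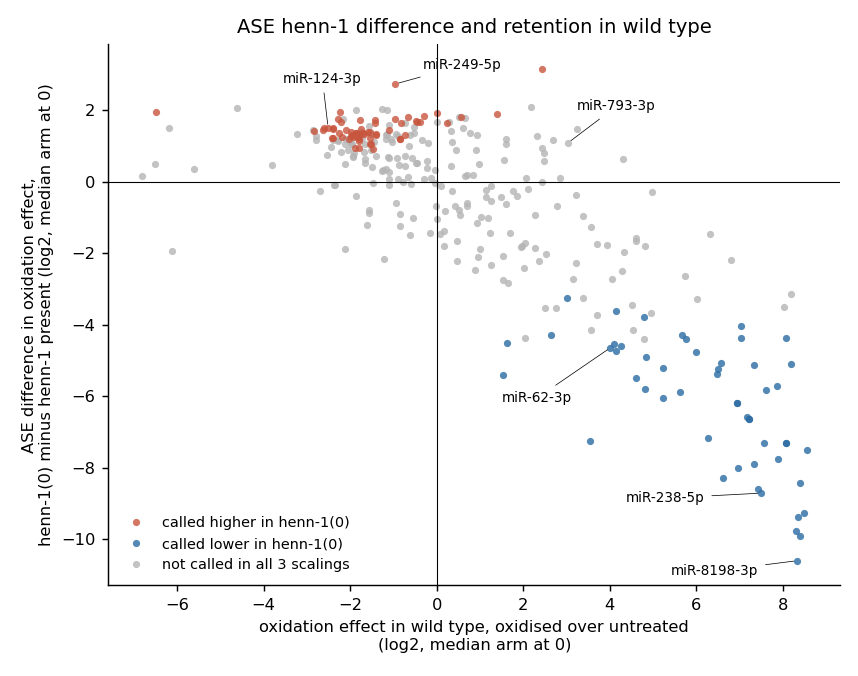
ASE difference in oxidation effect, henn-1(0) minus henn-1 present (y axis, log2, median arm at 0), against the oxidation effect in wild type (x axis, log2, median arm at 0) for 317 arms, coloured by call. Arms kept in wild type lie at the lower right, reaching −10.59 for miR-8198-3p, and arms lost in wild type lie at the upper left around 1.19.

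3 lower arms, named after their values were seen, were not among those kept in wild type: miR-1820-5p, miR-85-3p and miR-1818-3p. miR-1820-5p had 198 and 224 CPM in oxidised henn-1(0) libraries against 2945 and 3407 CPM with henn-1, and 390 and 367 CPM in henn-1(0) against 438 and 606 CPM with henn-1 in untreated libraries (difference −4.29 ± 0.60, adjusted p = 0.00175). miR-85-3p and miR-1818-3p rested on 1 and 2 counts in the oxidised henn-1(0) pair, and miR-1818-3p was not called with the line as a block (edgeR adjusted p = 0.0521). 29 of the 82 arms kept in wild type were not called lower in henn-1(0), and 10 of these rose on oxidation in henn-1(0) lines. All of the 29 lay below the median arm except miR-793-3p, at 1.08, and miR-8189-5p, at 0.63. Among the 10 was miR-793-3p, a let-7 family member described below. Another was miR-8189-5p, named after its values were seen, with 7.42 and 9.95 CPM in oxidised henn-1(0) libraries and 4.74 and 5.13 CPM in oxidised libraries with henn-1. These levels rest on few counts, as 3 counts were worth 4.74 CPM in the oxidised MLC702 library.

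The lower and higher arms are described next by level, annotation and position, with no test. The untreated counts enter the oxidation effect and the power of its test, so the first 2 features are not independent of the calls. The lower arms' median untreated level was 3.82 CPM, against 1237 CPM for the higher arms and 7.11 CPM for all arms tested. 24 of the 56 lower arms (42.9%) were the scarcer arm of their hairpin in untreated libraries, against 15 of the 62 higher arms (24.2%) and 179 of all 395 (45.3%). 31 lower arms (55.4%) came from hairpins numbered 1000 or above, which were annotated late, against 7 higher arms (11.3%) and 175 of all arms (44.3%). Chromosome IV, which holds the large piRNA clusters of the worm, carried 17 lower arms (30.4%), 8 higher arms (12.9%) and 72 of all arms (18.3% of those placed). Mature sequences had a median length of 23 nt for the lower arms and 22 nt for the higher arms and for all arms. Arms with few counts need a larger difference to pass the test, and how far this sets the contrast in level was not tested.

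The higher arms included the main arms of well-known muscle, intestinal and neuronal microRNAs. miR-1-3p, the conserved muscle microRNA, had 24551 and 16926 CPM in oxidised henn-1(0) libraries against 3654 and 3884 CPM with henn-1, and 26880 and 34176 CPM in henn-1(0) against 34745 and 31844 CPM with henn-1 in untreated libraries. Oxidised henn-1(0) libraries lay above the oxidised ones with henn-1, while the untreated groups overlapped, and the difference was 1.76 ± 0.54 (adjusted p = 0.00137). miR-60-3p, abundant in the intestine, had 7339 and 10607 CPM in oxidised henn-1(0) libraries against 2900 and 3188 CPM with henn-1, and 14749 and 13944 CPM in henn-1(0) against 23790 and 20708 CPM with henn-1 in untreated ones. In both treatments the genotypes did not overlap, in opposite orders. Its difference of 1.34 ± 0.58 (adjusted p = 0.0247) was not called without the oxidised MLC750 library with TMM or RLE, nor with RLE without the oxidised MLC702 library or the untreated MLC749, MLC750 or MLC702 library.

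miR-52-5p, the most abundant arm of the untreated libraries and a member of the miR-51 family, which embryos need, had 122054 and 133604 CPM in oxidised henn-1(0) libraries against 43719 and 30655 CPM with henn-1. The difference was 0.94 ± 0.38 (adjusted p = 0.0225), and 0.44 without the oxidised MLC703 library. With RLE it was not called without that library or the untreated MLC750 or MLC702 library. miR-55-3p of the same family had 126639 and 97912 CPM in oxidised henn-1(0) libraries and 26524 and 20217 CPM with henn-1 (1.65 ± 0.44, adjusted p = 0.0014). For both arms every oxidised henn-1(0) library exceeded every oxidised library with henn-1. miR-86-5p (1.31 ± 0.40, adjusted p = 0.00252) and miR-236-3p, a relative of the vertebrate miR-200 family (1.73 ± 0.52, adjusted p = 0.00174), differed in the same direction. Not every abundant arm did: miR-67-3p of the muscle list had 5039 and 7637 CPM in oxidised henn-1(0) libraries against 23590 and 25730 CPM with henn-1. Its difference was −2.75 ± 0.48 relative to the median arm. The test of its value before the median arm was taken off missed the threshold (adjusted p = 0.219).

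Higher arms with no group at 0 had differences between 0.91 and 3.16. The choice of the higher arms fixed which genotype had the higher oxidation effect. The oxidation effects themselves varied: in henn-1(0) lines 19 of the 62 rose on oxidation, 13 fell and 30 passed neither way, and in lines with henn-1 5 rose, 40 fell and 17 passed neither way. The 5, named after their values were seen, were miR-2953-3p, miR-249-5p, miR-254-5p, miR-790-5p and miR-1821-3p. All 62 arms stayed higher when library sizes were taken from the arms not kept in wild type alone, but only 26 arms were then called higher, all of them among the 62, with 94 called lower. When the model was fitted to the 8 ASE libraries by themselves, 7 arms were called higher and 101 lower, and all 62 again had a positive sign. The 56 lower arms were called lower in each of these fits.

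Arms were also grouped by lists of tissue and family members. Of 12 tested arms of microRNAs kept by the ASE driver, 5 were higher and none lower, with a median of 1.23. Of 16 neuronal arms 6 were higher and 1 lower (median 1.18), of 14 muscle arms 4 and none (0.81), of 12 intestinal arms 2 and 2 (0.86), and of 6 epidermal, seam and glial arms 2 and 1 (0.76). The ASE, neuronal, intestinal and muscle lists were chosen wholly or in part with earlier results of these libraries known. The miR-51 family had 7 of 12 arms higher and none lower (median 1.2), the miR-64 family 4 of 10 (0.59), the miR-72 family 3 of 6 (0.91), the miR-58 family 2 of 10 (−0.25), the let-7 family 1 of 11 (0.89), and none of these had a lower arm. The miR-35 family, needed for embryogenesis, had 1 of 16 arms higher and 2 lower (−0.16), and the intronic hairpins and mirtrons had 1 of 8 higher and 1 lower (0.05). Over all 395 arms the counts were 62 and 56 (15.7% and 14.2%) with a median of 0. With RLE factors the 14 muscle arms had 4 called in each direction.

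**Figure D4:**
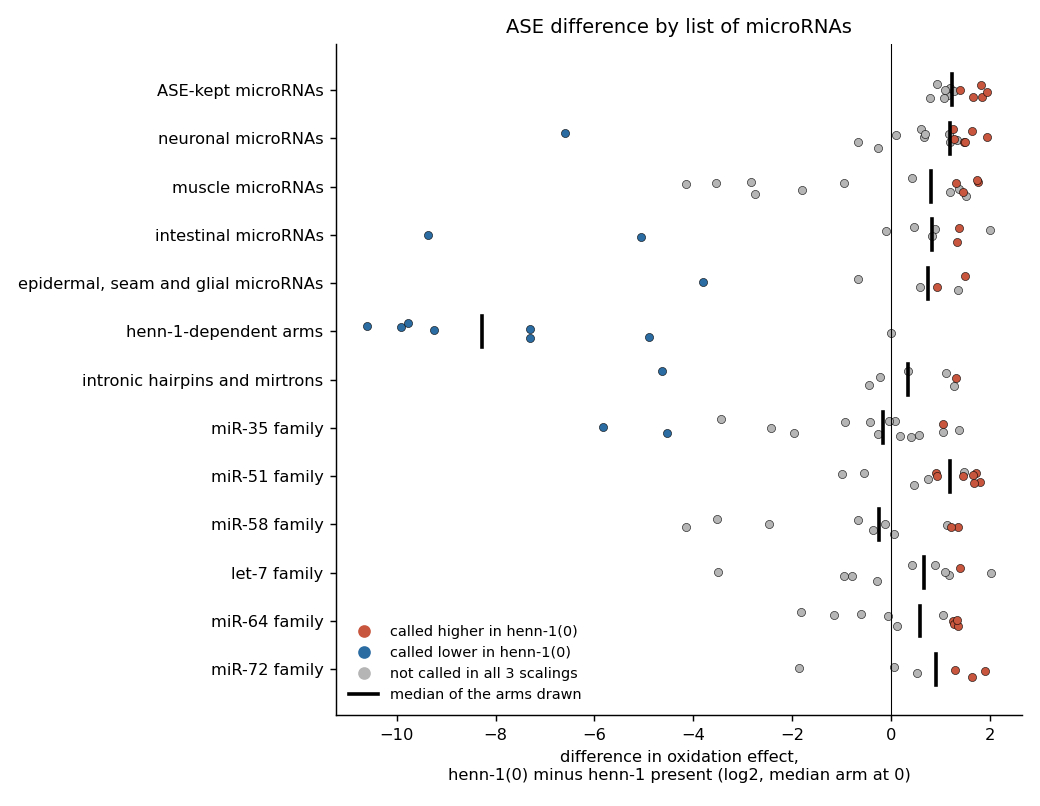
ASE difference in oxidation effect (x axis, log2, median arm at 0) for the tested arms of 13 lists with no group at 0, 1 point per arm coloured by call, with a bar at the median of the arms drawn. Arms picked earlier as dependent on henn-1 lie far to the left, and the ASE-kept, neuronal and miR-51 lists have medians to the right of 0.

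The summed level of a tissue's arms shows what share of the oxidised libraries they held. The 56 lower arms alone took 56.4% and 56.9% of the oxidised counts with henn-1, against 3.64% and 3.21% in henn-1(0). A sum can therefore be smaller with henn-1 without a smaller amount of its arms. Muscle arms summed to 73631 and 75446 CPM in oxidised henn-1(0) libraries against 38706 and 41525 CPM with henn-1, and to 79768 and 93933 CPM in henn-1(0) against 90840 and 90799 CPM with henn-1 in untreated libraries. Intestinal arms summed to 8041 and 11921 CPM in oxidised henn-1(0) libraries against 8989 and 6971 CPM with henn-1, groups that overlap, and to 15146 and 14381 CPM in henn-1(0) against 24177 and 21100 CPM with henn-1 in untreated libraries. Neuronal arms summed to 136306 and 154431 CPM in henn-1(0) against 35323 and 35659 CPM with henn-1 after oxidation and to 90378 and 93153 CPM in henn-1(0) against 71177 and 77773 CPM with henn-1 before. Muscle and intestinal microRNAs were present in oxidised libraries of an ASE line, and their part in the differences of other arms was not tested.

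miR-124-3p, a neuronal microRNA conserved in mammals and hosted by trpa-1, had its highest levels in the oxidised henn-1(0) libraries. It had 42380 and 42817 CPM in oxidised henn-1(0) libraries against 7363 and 8015 CPM with henn-1. Untreated libraries held 10082 and 6694 CPM in henn-1(0) and 7609 and 7556 CPM with henn-1, so the untreated groups overlapped. On the CPM scale the oxidised level was above every untreated one in henn-1(0) lines. With henn-1 the oxidised levels, 7363 and 8015 CPM, lay on either side of the untreated ones, 7609 and 7556 CPM. The difference was 1.5 ± 0.52 (adjusted p = 0.00408).

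The ASE-kept list was chosen for arms that oxidised ASE libraries keep, so their rise over the untreated level was fixed by that choice. 3 of its 5 arms called higher in henn-1(0) follow. miR-1821-3p had 13021 and 14016 CPM in oxidised henn-1(0) libraries against 2190 and 2425 CPM with henn-1, and 67.8 and 68.6 CPM in henn-1(0) against 58.8 and 73.0 CPM with henn-1 in untreated ones (difference 1.67 ± 0.55, adjusted p = 0.0097). miR-790-5p had 31699 and 20913 CPM in henn-1(0) against 5119 and 3777 CPM with henn-1 after oxidation and 495 and 339 CPM in henn-1(0) against 439 and 404 CPM with henn-1 before (1.82 ± 0.58, adjusted p = 0.0112). miR-2953-3p had 220 and 290 CPM in henn-1(0) against 55.3 and 39.5 CPM with henn-1 after oxidation (1.83 ± 0.64, adjusted p = 0.00483). With RLE, miR-790-5p was not called without the oxidised MLC749 or the untreated MLC750 library. In each of the 3 arms both oxidised henn-1(0) libraries lay above both oxidised libraries with henn-1, and all 4 lay above the untreated ones.

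The 2 arms of lsy-6 differed in whether they passed. lsy-6-3p (hairpin between genes at V:10647232-10647304), at the levels given above, had a difference of 1.19 ± 0.61 with adjusted p = 0.0506 in the RLE scaling, which left it outside the called arms, although TMM gave 2.38e-05. lsy-6-5p was called, with 51.4 and 150 CPM in oxidised henn-1(0) libraries against 19.0 and 22.9 CPM with henn-1 and 2.87 and 2.61 CPM in henn-1(0) against 4.02 and 4.22 CPM with henn-1 in untreated libraries (1.95 ± 0.66, adjusted p = 0.00449). It rested in part on the oxidised MLC750 library, without which the difference was 1.27 and was not called with RLE. miR-791-5p, known for its role in neurons that sense carbon dioxide, missed the threshold in at least 1 scaling (1.27 ± 0.70, adjusted p = 0.129), with 3447 and 3855 CPM in oxidised henn-1(0) libraries against 972 and 680 CPM with henn-1. Without the oxidised MLC703 library its difference was 0.77. miR-793-3p missed it as well (1.08 ± 0.48, adjusted p = 0.0559), with 41830 and 35426 CPM in henn-1(0) against 10732 and 10610 CPM with henn-1 after oxidation and 561 and 570 CPM in henn-1(0) against 581 and 586 CPM with henn-1 before.

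The largest differences among the higher arms belonged to scarce arms and to miR-249. miR-1832a-5p and miR-247-3p had no count in either oxidised library with henn-1, and their ratios of oxidised over untreated were at least 3.47-fold and at least 3.36-fold higher in henn-1(0). miR-1830-5p had 18 counts in the oxidised henn-1(0) pair and 2 with henn-1, a ratio of 8.27 on the CPM scale (95% counting interval 1.98 to 73.5). Each of these 3 arms lost its call in at least 2 of the fits that leave out a library. miR-249-5p had 104 and 408 CPM in oxidised henn-1(0) libraries against 20.6 and 11.8 CPM with henn-1 (2.73 ± 0.84, adjusted p = 0.00527), and 1.74 without the oxidised MLC750 library, where it was not called. miR-249-3p had 770 and 1432 CPM in henn-1(0) against 206 and 167 CPM with henn-1 (1.89 ± 0.77, adjusted p = 0.03) and was not called without that library either, nor with RLE without either oxidised library with henn-1 or the untreated MLC749, MLC750 or MLC703 library. miR-74-5p (1.91 ± 0.68) was at 0.77 and miR-1829a-5p (1.94 ± 0.73) at 1.18 without the oxidised MLC703 library, and neither was then called.

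The 2 arms of a hairpin come from 1 transcript, and in 5 hairpins they moved in opposite directions. Of 178 hairpins with both arms tested, 22 had both arms called: 9 with both higher, 8 with both lower and 5 split. Among the 8 were miR-5592-1 and miR-5592-2, copies with nearly the same values. Shared reads, seen as fractional counts, entered 15 of the 56 lower arms and 6 of the 62 higher ones, so copies are not separate members. In each of the 5, which were miR-228, miR-232, miR-234, miR-242 and miR-43, the arm that was more abundant before oxidation was higher in henn-1(0) and the scarcer arm lower. miR-234-3p, a neuronal microRNA, had 316 and 471 CPM in oxidised henn-1(0) libraries against 112 and 122 CPM with henn-1, and 1275 and 888 CPM in henn-1(0) against 1293 and 1446 CPM with henn-1 in untreated ones (1.25 ± 0.54, adjusted p = 0.0256). Its partner miR-234-5p had 1.98 and 4.74 CPM in henn-1(0) against 239 and 248 CPM with henn-1 after oxidation and 0.981 and 1.90 CPM in henn-1(0) against 2.12 and 1.79 CPM with henn-1 before (−6.59 ± 0.81, adjusted p = 1.03e-05). With henn-1, oxidation thus put the scarce arm above the abundant one, and without henn-1 the abundant arm stayed on top.

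miR-232 showed the same reversal of its arms. miR-232-3p had 5794 and 7022 CPM in oxidised henn-1(0) libraries against 1347 and 1471 CPM with henn-1 (1.42 ± 0.45, adjusted p = 0.00135), beside the −4.38 of miR-232-5p given above. The values of the other 3 pairs were 1.44 ± 0.44 for miR-43-3p and −5.21 ± 0.70 for miR-43-5p, 1.21 ± 0.55 for miR-242-5p and −8.01 ± 0.85 for miR-242-3p, and 0.93 ± 0.34 for miR-228-5p, known from glia, and −3.80 ± 0.76 for miR-228-3p. miR-242-3p rested on 7 counts in 1 of its 2 oxidised henn-1(0) libraries, and its value was −16.25 without that library and −6.87 without the other. miR-228-5p was at 0.56 without the oxidised MLC703 library, and its call, like those of miR-234-3p and miR-242-5p, was lost in RLE fits without a library.

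Before oxidation few arms passed a test between the genotypes. Of 395 arms, 1 (0.253%) was higher in untreated henn-1(0) libraries with TMM and 0 were lower, while 23 had an unadjusted p under 0.05. With DESeq2 1 arm was called, and none was called in all 3 scalings of edgeR. The 1 arm was miR-8198-5p, with 10.9 and 13.7 CPM in henn-1(0) and 2.93 and 1.72 CPM with henn-1, a log2 difference of 2.36 ± 0.55 (edgeR adjusted p = 0.0490 with TMM and 0.0934 with total counts). Its untreated level was thus higher in the lines where its oxidised level was lower. Median untreated log2 differences were 0.13 for the 56 lower arms, −0.06 for the 62 higher arms and −0.06 for all arms. Fitting the ASE libraries by themselves gave 17 arms higher and 10 lower before oxidation, and 13 of the 56 lower arms and none of the 62 higher arms were among them.

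The same contrast was made with Ath-HEN1 under myo-3, a body wall muscle driver, in the henn-1(0) lines MLC900 and MLC901 and the lines MLC889 and MLC890 with henn-1, again 1 oxidised and 1 untreated library per line and none shared with ASE. There 46 of 395 arms (11.6%) were lower in henn-1(0) in all 3 scalings and 1 (0.253%) was higher, miR-359-3p, named after its values were seen. The higher count again depended on the fit, with 53 arms higher with RLE factors, 68 with DESeq2 and 89 without the filter on low counts. 38 arms were lower with both drivers, 67.9% of the 56 in ASE lines and 82.6% of the 46 in myo-3 lines, and no arm was higher with both in all 3 scalings. All 56 arms lower in ASE had a negative sign in myo-3 with TMM, and 53 had one with RLE. miR-62-3p took 0.329% and 0.247% of the counts in oxidised myo-3 henn-1(0) libraries against 7.19% and 7.05% with henn-1, a smaller share than in ASE lines in each genotype, and its difference was −4.30 ± 0.52 (adjusted p = 6.86e-07). miR-8198-3p had 0.398 and 0 CPM in oxidised myo-3 henn-1(0) libraries against 341 and 377 CPM with henn-1. miR-1-3p, the arm of the driver's own tissue, was higher in ASE henn-1(0) and not called in myo-3. It had 295202 and 295542 CPM in oxidised myo-3 henn-1(0) libraries against 266528 and 244002 CPM with henn-1, and its difference was 0.69 ± 0.52 (adjusted p = 0.711).

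**Figure D5:**
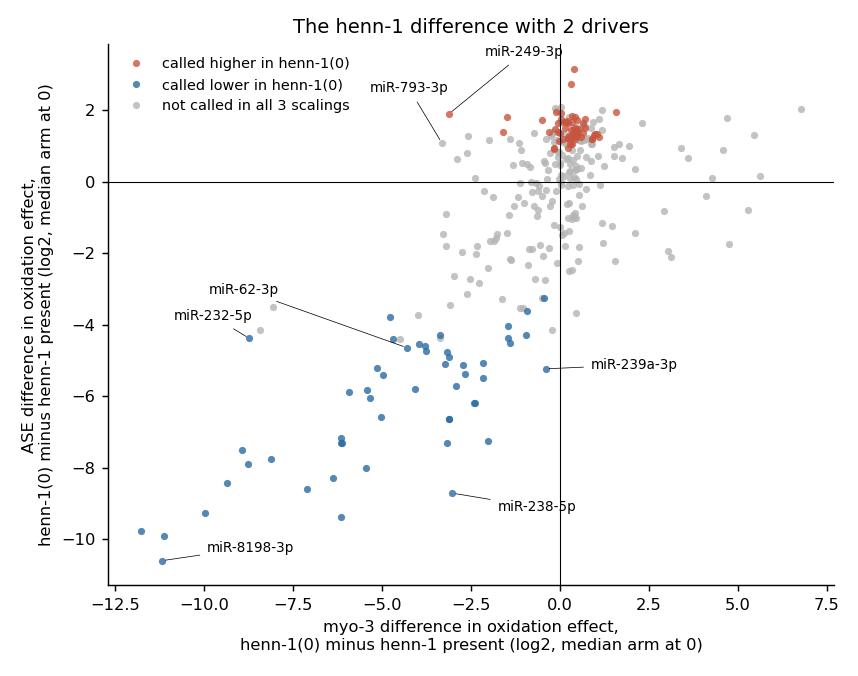
ASE difference (y axis) against the myo-3 difference (x axis), both henn-1(0) minus henn-1 present in the oxidation effect (log2, median arm at 0), for arms with no ASE group at 0 and a myo-3 value within 15, coloured by the ASE call. The lower arms fall in the lower left for both drivers, while the higher arms of ASE, with a median of 1.41, mostly lie nearer 0 in myo-3.

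Whether an arm's difference itself differed between the drivers was tested for all 395 arms in the same model. 3 arms (0.759%) were higher and 3 (0.759%) lower in ASE than in myo-3 in all 3 scalings, against 130 (32.9%) higher with TMM alone and 3 with RLE. The differences between drivers are TMM values before the median arm, at 2.24, was taken off. miR-793-3p differed by 6.49 ± 0.68 (TMM, edgeR adjusted p = 5.63e-09), or 4.25 relative to the median arm. In myo-3 lines it had 37.1 and 34.9 CPM in oxidised henn-1(0) libraries against 460 and 280 CPM with henn-1, the opposite order of that in ASE lines. miR-249-3p differed by 7.09 ± 1.18, or 4.85 relative to the median arm. In oxidised myo-3 libraries it had 0.796 and 0.373 CPM (8 and 4 counts) in henn-1(0) against 10.5 and 7.61 CPM (12 and 11 counts) with henn-1. The order was again opposite, but its difference within myo-3 did not pass in all 3 scalings (edgeR adjusted p = 0.068). miR-232-5p differed by 6.42 ± 0.90, or 4.18 relative to the median arm. It had 10.2 and 9.05 CPM in oxidised myo-3 henn-1(0) libraries against 3370 and 3054 CPM with henn-1, the same order as in ASE lines and a wider gap.

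miR-238-5p and miR-239a-3p stood on the other side, with a larger loss in ASE than in myo-3. miR-238-5p differed by −3.60 ± 0.91 (TMM, edgeR adjusted p = 0.00224), or −5.84 relative to the median arm. It had 433 and 206 CPM in oxidised myo-3 henn-1(0) libraries against 4460 and 4255 CPM with henn-1. miR-239a-3p differed by −2.75 ± 0.91 (adjusted p = 0.0178), or −4.99 relative to the median arm. It had 1122 and 670 CPM in oxidised myo-3 henn-1(0) libraries against 2593 and 3979 CPM with henn-1. Relative to the median arm its difference within myo-3 was −0.40 ± 0.64, and it did not pass (adjusted p = 0.871). The third, the mirtron arm miR-1018-5p, had at most 5 counts in any oxidised ASE library and none in the oxidised myo-3 libraries with henn-1, so its fitted value is not interpretable as a size.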

How the data were processed

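The authors deposited expected counts per microRNA arm for each library, and arms with fractional values held 1.56% to 8.81% of an ASE library's counts. Per the submitters' processing notes, cutadapt 1.2.1, HTSeq 0.6.1p1 and the build WBcel235 were used, and the sources used here name no aligner. Per the labels' protocols, RNA of 18 to 30 nt was selected. The expected counts were rounded to whole numbers. The 443 entries of other species were 0 in every library. edgeR 4.0.16 (R 4.3.3, limma 3.58.1) fitted 1 robust quasi-likelihood model to 22 groups over 46 libraries, with TMM factors, a minimum count of 10 and Benjamini-Hochberg adjustment at 0.05 over 395 arms. The fit was repeated with RLE factors and total counts, and an arm counts as called where all 3 gave the same direction. DESeq2 1.42.0, other filters, blocks and leaving out each library were alternatives. p-values rest on a spread between libraries of a group that was estimated over all 22 groups, and not on the 2 ASE lines of a group alone. Per-line ratios used CPM plus 0.5. CPM are counts scaled to 1000000 worm-arm counts per library. Intervals and floors of 3 counts cover counting error only, as the labels name no molecular identifiers. Positions come from the Ensembl annotation of WBcel235.

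Oxidised and untreated libraries of 1 line share that line, and their deviations from the group means correlated at 0.355 (henn-1(0)) and 0.387 (henn-1 present) over 189 arms, so the line pairs them. The block by line changed the calls of 2 arms in the lower set. Named arms were the 10 highest and 10 lowest called differences whose lines did not overlap, both arms of the hairpins miR-62, miR-60, miR-124, miR-1 and lsy-6, and members of 13 lists. The members and lists were chosen with earlier results of these data known. Scripts were tested on simulated counts.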

Additional observations from a re-analysis of the deposited data

Results flagged for a closer look

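6 arms had a difference between henn-1(0) lines and lines with henn-1 that itself differed between the ASE and the myo-3 driver in all 3 scalings, by an interaction test in edgeR over 395 arms. The values are ASE minus myo-3 on the log2 TMM scale, whose median over all arms was 2.24. 3 were positive: 7.09 for miR-249-3p, 6.49 for miR-793-3p and 6.42 for miR-232-5p. 3 were negative: −12.79 for miR-1018-5p, whose fitted value rests on groups at 0, −3.60 for miR-238-5p and −2.75 for miR-239a-3p. Relative to the median arm the values were 4.85, 4.25 and 4.18 for the positive arms and −5.84 for miR-238-5p and −4.99 for miR-239a-3p. The drivers' libraries carry separate ranges of library numbers, and what the numbers mark is unknown here, so it and the driver cannot be told apart.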

How the results depend on the processing

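With TMM factors 173 arms were higher and 56 lower in ASE henn-1(0). The counts higher and lower were 62 and 88 with RLE factors, 65 and 87 with DESeq2, 64 and 88 with total counts without miR-62-3p, 26 and 94 without all arms kept in wild type, 7 and 101 in the ASE libraries alone, and 82 and 88 with a replicate block by line and RLE factors. Total counts gave 108 higher and a stricter filter 90. Leaving out 1 library gave 66 to 90 higher and 68 to 76 lower with TMM, and 41 to 50 higher with RLE, lowest without the oxidised MLC702 library. The TMM result rests on its reference library, an oxidised myo-3 library: over 46 references its factors shifted the ASE difference by −1.50 to 1.24 (median 0.14), and the default gave 1.24. The numbers 5 and 9 that both genotypes share showed no pairing in the deviations from the group means (correlations −0.04 and −0.06). With so few lines this cannot show that lines of the same number are unrelated. A replicate block by number in the ASE libraries gave 9 higher and 100 lower. The 56 lower arms, called with TMM, RLE and total counts by definition, stayed called with DESeq2 and the ASE libraries alone. With the replicate block by line 2 of them were lost, miR-1818-3p (edgeR adjusted p = 0.0521) and miR-8186-1-3p (0.0533). Before oxidation, 1 arm higher and 0 lower became 17 and 10 in the ASE libraries alone and 14 and 10 with the block by number, while no filter, total counts with or without the kept arms or miR-62-3p, and leaving out a library gave 0 or 1 higher. In myo-3, 1 higher became 68 with DESeq2, 53 with RLE, 89 with no filter and 1 to 80 without 1 library, and 56 lower became 33 with no filter and 32 to 53 without 1 library. For ASE against myo-3, 130 higher and 3 lower became 5 and 31 with DESeq2, 3 and 26 with RLE, 4 and 5 with no filter, 35 and 5 with total counts, 6 and 13 without the kept arms, 7 and 6 without miR-62-3p, and 2 to 113 and 2 to 26 without 1 library. In wild type, 82 higher and 193 lower became 149 and 79 with DESeq2, 138 and 83 with RLE, 126 and 94 with no filter, 125 and 90 with total counts, 157 and 43 without the kept arms, 143 and 72 without miR-62-3p, and 109 to 125 and 63 to 96 without 1 library. The 53 arms kept in wild type and lower in ASE became 81 with RLE, 82 with DESeq2, 82 without miR-62-3p and 89 without the kept arms. miR-62-5p, not called and at 1.82 with TMM on the log2 scale, had the opposite sign at −0.86 in the ASE libraries alone and with the block by number, −0.085 with DESeq2, −0.087 with RLE, −0.089 without miR-62-3p, −0.14 with the block by line and RLE, −0.51 without the kept arms and −0.22 to 0.76 without 1 library. miR-1018-5p, at −6.38 with TMM, ranged over −9.19 to 0.083 without 1 library. The alternatives without miR-62-3p or the kept arms, the block by line with RLE, the RLE fits without a library and the ASE-alone fits of untreated libraries were chosen after seeing the data. The cause of these changes was not tested. The oxidised libraries, with 632514 to 1267212 counts, limit all arms of a few CPM.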
